A study of Homo sapiens with 11 samples.

Results

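AluS elements are the most numerous group of Alu repeats in the human genome, and they were followed here in RNA recovered with J2, an antibody that binds double-stranded RNA. Members were chosen by name alone: every row of the deposited repeat tables whose name places it in the Alu family and in an AluS subfamily. This gave 720665 elements in 17 subfamilies, out of 1238490 Alu elements and 5622516 repeat elements in all. Reads were compared between 3 J2 libraries of the established colorectal cancer cell line HCT116. The control library came from cells given an siRNA against luciferase (siLuc) and the solvent DMSO. A second library came from siLuc cells given decitabine (DAC), at 500 nM for 5 days per the labels. The third came from cells given an siRNA against Staufen1 (siStau1) and the same decitabine treatment. The fourth combination, siStau1 with DMSO, was not analysed here for J2, so the siRNAs can be compared only in cells that also had decitabine. The series further holds 8 total RNA libraries, 2 for each of the 4 combinations of siRNA and treatment, used here for the genes of proteins that bind Alu RNA. The sample labels name J2 as the antibody, but their common protocol text speaks of an antibody to Staufen1, so the identity of the antibody is uncertain.

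Alu elements are short interspersed repeats that arose from the gene of 7SL RNA, the RNA core of the signal recognition particle, and they copy themselves with the proteins of LINE-1 elements. AluJ is the oldest group, AluS is intermediate and AluY holds the youngest copies. Alu copies lie densely in introns and in the untranslated ends of mRNAs, and 2 copies in opposite orientation in 1 transcript can fold back into a long RNA duplex. Such duplexes are edited by ADAR, bound by Staufen1 and, when unedited, sensed by the innate immune receptor MDA5. Decitabine is a nucleoside that lowers DNA methylation, and Alu copies carry a large part of the methylated CpG sites of the genome.

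The sequences, lengths and positions of single elements were not used here.

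Reads on repeat rows numbered 71473124 for siLuc DMSO, 68944777 for siLuc DAC and 83037330 for siStau1 DAC. Each group has 1 library, so there is no replicate check: no p-value is given between libraries, and intervals cover counting error only. Even read numbers were in excess, with 120187 AluS elements at 2, 4, 6 or 8 reads in siLuc DMSO against 40875 at 1, 3, 5 or 7, so reads may not be separate draws, and the intervals would then be too narrow. Reads on AluS in RNA that was not enriched were not analysed here, so the values are shares of the recovered RNA and not enrichments over an input. In bulk RNA of this kind, fewer cells with a transcript and less of it per cell cannot be told apart. STAU1, the gene targeted by the siRNA (ENSG00000124214.19, chromosome 20, 49113339 to 49188367 of GRCh38, the build of all gene positions given), stood at 35.5 FPKM in siLuc and 30.0 in siStau1 cells with DMSO, and at 33.7 and 27.1 with decitabine. Neither difference was called in the authors' deposited table, with q-values of 0.767 and 0.685. Of 5 epithelial markers, EPCAM, KRT8, KRT18 and CDH1 stood at 14.3 to 3469 FPKM over the 4 total RNA groups, while VIL1, the villin of mature gut epithelium, was at most 0.198 FPKM in each.

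Among the repeat groups compared, AluS elements held the most J2 reads, and their share was lowest after decitabine in control cells. They made up 12.8% of repeat elements and held 39.5%, 31.3% and 36.6% of the reads on repeats in siLuc DMSO, siLuc DAC and siStau1 DAC. The Wilson 95% intervals were 39.50% to 39.52%, 31.34% to 31.36% and 36.55% to 36.58%. In reads these shares were 28237725, 21612122 and 30362424. The share does not depend on how libraries are scaled to each other. Among reads on Alu elements alone the order of the libraries was the same but the gaps were small, at 68.8%, 67.0% and 67.7%. Rows of 7SL-type repeats (srpRNA) took 10.5%, 11.1% and 8.76% of the reads. With the small structured RNA classes left out of the total, AluS held 50.1%, 41.0% and 44.9%.

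All 17 subfamilies showed the same order, with siLuc DMSO highest, siStau1 DAC between and siLuc DAC lowest, and in 17 of 17 the 3 intervals did not overlap. The intervals cover counting error only and are narrow at this depth. The subfamilies come from the same 3 libraries, so these are not 17 separate results. The order was not particular to AluS. AluJ as a whole held 12.7%, 10.9% and 12.3% of repeat reads in siLuc DMSO, siLuc DAC and siStau1 DAC. AluY as a whole had the same order, and in both groups the 3 intervals did not overlap. The same count was not made for subfamilies of other repeats. AluSz, the subfamily with the most reads, held 7.53%, 5.88% and 6.91% of repeat reads in siLuc DMSO, siLuc DAC and siStau1 DAC, from 5382581, 4056235 and 5740688 reads. AluSx, the one with the most copies (129556 elements), held 6.67%, 5.28% and 6.17% in the same order of libraries. AluSx1 held 6.44%, 5.12% and 5.97%. In each of the 3 the siStau1 DAC value lay between the other two. AluSp followed with 4.05%, 3.25% and 3.76%, and AluSq2 with 2.70%, 2.12% and 2.50%. These 5 subfamilies held 69.3%, 69.1% and 69.2% of AluS reads in siLuc DMSO, siLuc DAC and siStau1 DAC, and they were 67.1% of AluS elements.

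**Figure D1:**
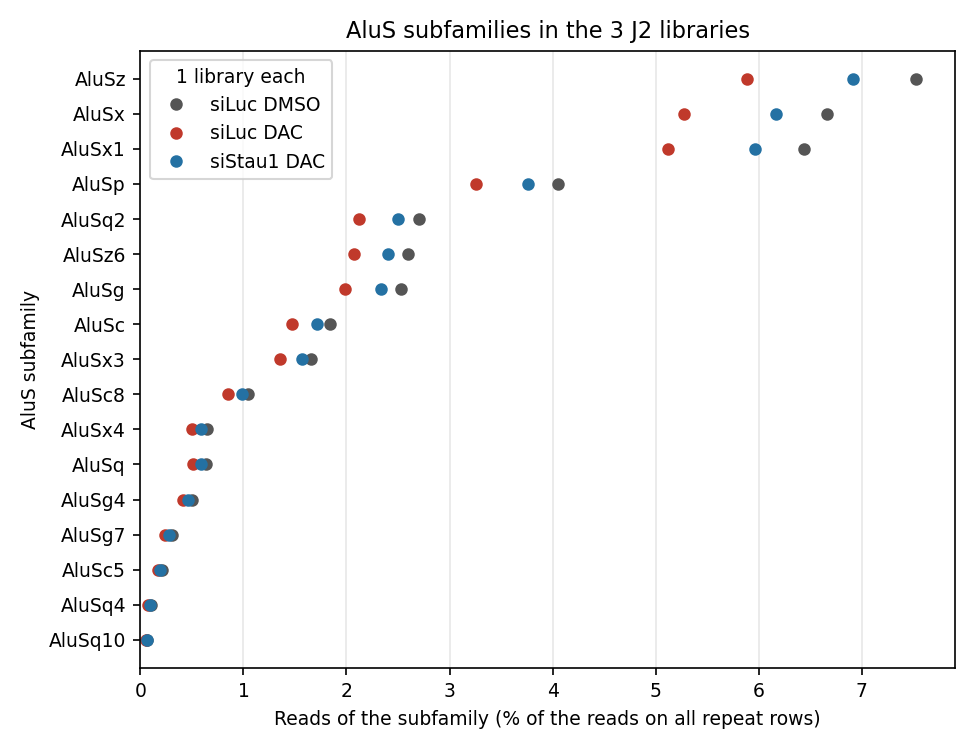
Reads of each AluS subfamily as a percentage of the reads on all repeat rows (horizontal axis), with 1 point for each of the 3 J2 libraries. In each of the 17 subfamilies the siLuc DMSO point lies highest and the siLuc DAC point lowest, as for AluSz at 7.53%, 6.91% and 5.88% in siLuc DMSO, siStau1 DAC and siLuc DAC.

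The makeup of AluS reads by subfamily hardly moved between libraries. The largest change in any subfamily's share of AluS reads was that of AluSz, which held 19.1%, 18.8% and 18.9% in siLuc DMSO, siLuc DAC and siStau1 DAC. The smallest subfamily, AluSq10 with 1575 elements, held 0.160%, 0.168% and 0.165% of AluS reads. Subfamilies did differ among themselves in reads per copy. In siLuc DMSO the mean ran from 28.3 reads per element in AluSg4 to 44.1 in AluSz, with AluSz6 at 43.9 and AluSp at 43.1. AluSq10 at 28.7 and AluSx3 at 29.6 were also near the low end. The part of elements with at least 1 read ran from 48.9% in AluSx3 to 60.4% in AluSp. AluSx3 and AluSp were also the lowest and highest by this measure in siLuc DAC, at 41.2% and 50.3%, and in siStau1 DAC, at 48.0% and 58.9%. Element lengths were not used here, so differences in reads per copy are not adjusted for length.

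To compare decitabine with solvent in control cells, the log2 ratio of summed reads was taken after scaling each library to its reads on all repeat rows. On this scale all 17 subfamilies were lower in siLuc DAC, and AluS as a whole had a log2 ratio of −0.33. AluSx4, the lowest, had 460340 reads without and 342058 with decitabine, a log2 ratio of −0.38. AluSg4, the highest of the 17, had 355491 and 286213 reads, a log2 ratio of −0.26. The direction rests on the scaling. With the factors the authors applied to their deposited columns, every log2 ratio of this comparison is higher by 0.89, and all 17 subfamilies are higher in siLuc DAC, by 0.51 to 0.63. Scaled to the reads on Alu rows, 3 of 17 subfamilies were higher. What does not depend on the scaling is the spread between subfamilies, which was 0.12 from the lowest to the highest.

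The gap between siStau1 and siLuc, both with decitabine, ran the other way. On the scale of all repeat reads all 17 subfamilies were higher in siStau1 DAC, with a log2 ratio of 0.22 for AluS as a whole. AluSq4 was highest, with 53132 reads in siLuc DAC against 76900, a log2 ratio of 0.27. AluSg4 was lowest, with 286213 and 386869 reads and a log2 ratio of 0.17. Under the authors' factors all 17 are lower in siStau1 DAC, by log2 ratios of −0.16 to −0.06, since those factors lower every log2 ratio here by 0.32. Against siLuc DMSO, the siStau1 DAC library had log2 ratios of −0.14 in AluSx4 to −0.07 in AluSq10, with AluS as a whole at −0.11. AluSq10 had 45164 reads in siLuc DMSO and 50129 in siStau1 DAC. The authors' factors raise every log2 ratio of that comparison by 0.57, and all 17 subfamilies then lie higher in siStau1 DAC, by 0.43 to 0.50. The 3 comparisons share libraries in pairs and are not independent of each other.

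**Figure D2:**
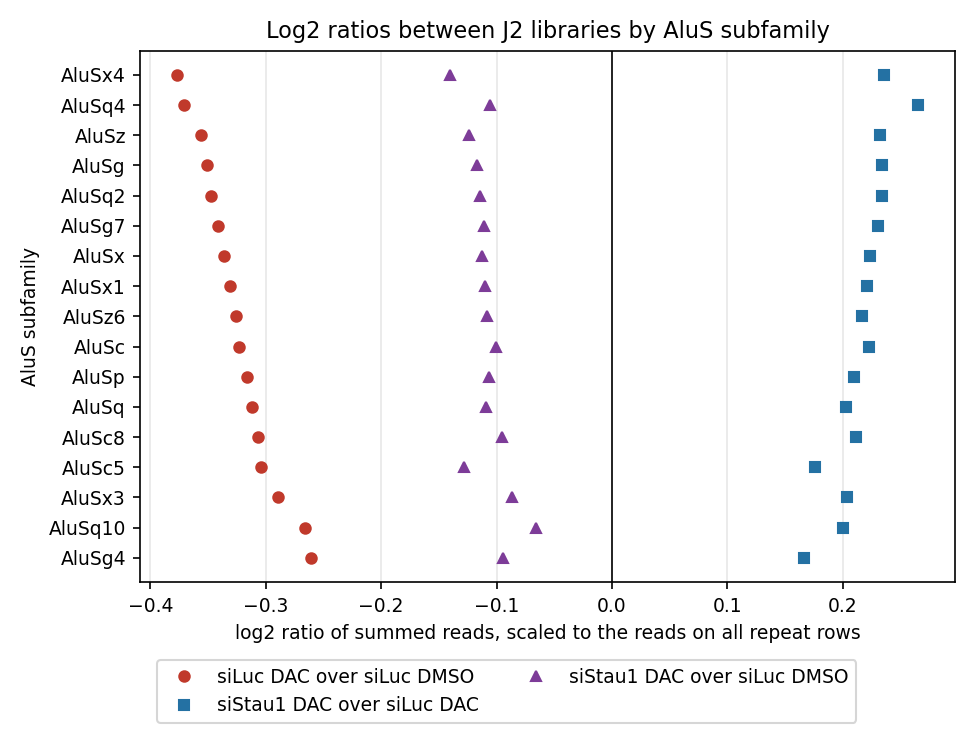
Log2 ratio of summed reads for each AluS subfamily (horizontal axis, scaled to the reads on all repeat rows) in the 3 comparisons of J2 libraries. All 17 subfamilies lie below 0 for siLuc DAC over siLuc DMSO and above 0 for siStau1 DAC over siLuc DAC on this scale; with the authors' factors the points of the 3 comparisons move by 0.89, −0.32 and 0.57 and change side.

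Single elements spread much more widely than subfamilies. The ratio was computed for elements that reached 20 reads over both libraries, adding 0.5 reads to each, which 221295 AluS elements (30.7%) passed for siLuc DAC over siLuc DMSO. Their median log2 ratio was −0.38 (95% interval −0.379 to −0.372, from order statistics), and their quartiles were −0.97 and 0.17. The median over all repeat elements that passed was 0.01. Among the AluS elements 68.0% were below 0, against 49.6% of all repeat elements. Beyond 2-fold, 5.97% of AluS elements were higher and 24.0% lower in siLuc DAC. The background over all repeat elements was 21.3% higher and 17.0% lower. With the authors' factors the AluS figures become 27.2% higher and 8.86% lower, and the background moves with them to 46.2% and 6.73%. On either scale a smaller share of AluS than of all repeat elements was higher, and a larger share lower.

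In siStau1 DAC over siLuc DAC the median over 219679 AluS elements was 0.21 (0.202 to 0.209), with 38.9% below 0 against a background of 48.7%. Beyond 2-fold, 17.7% of AluS elements were higher and 7.33% lower, where all repeat elements had 15.5% and 14.8%. The share that was higher was thus near the background, and the share that was lower was below it. Under the authors' factors the AluS median is −0.12, with 11.8% of elements higher and 12.9% lower, against a background of 10.5% and 22.2%. Against siLuc DMSO, siStau1 DAC had a median over 236012 elements of −0.18, with 62.5% below 0 against 48.1%. There 5.03% were higher beyond 2-fold and 10.8% lower, against 14.5% and 8.27% of all repeat elements. The authors' factors turn this median to 0.39, with 16.0% higher and 3.67% lower, against 30.5% and 2.78%.

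The subfamilies' medians for siLuc DAC over siLuc DMSO ran from −0.45 in AluSc5 (interval −0.50 to −0.38, 1201 elements) to −0.29 in AluSg4 (−0.32 to −0.25, 3208 elements). These 2 intervals did not overlap, but that of AluSc5 overlapped those of AluSz (−0.40, from −0.41 to −0.39) and AluSx1 (−0.39, from −0.40 to −0.38). AluSx3 lay near AluSg4 at −0.32 (−0.34 to −0.30). The subfamily at the low end differed between the median and the sum of reads, AluSc5 in the first and AluSx4 in the second, while AluSg4 was at the high end by both.

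By the median over elements that passed the minimum of reads, AluS was close to the other Alu groups and far from the rest of the repeats. The difference of medians between groups does not depend on the scaling. For siLuc DAC over siLuc DMSO the AluS median minus that of AluY (−0.30, 35211 elements) was −0.076, and minus that of AluJ (−0.23, 79912 elements) it was −0.15. Minus the median of repeats outside Alu (0.65, 261668 elements) it was −1.03. Only 5.97% of repeats outside Alu passed the minimum of reads, against 30.7% of AluS elements. For siStau1 DAC over siLuc DAC the AluS median exceeded that of AluY by 0.0049, within an interval of −0.011 to 0.017, and that of AluJ by 0.067. It exceeded the median of repeats outside Alu, −0.20, by 0.40. In the third comparison, siStau1 DAC over siLuc DMSO, the differences were −0.069 from AluY, −0.080 from AluJ and −0.57 from repeats outside Alu. With 1 library per group these differences carry no test.

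The spread over elements narrowed with read depth. Among 76517 AluS elements with 20 to 49 reads in siLuc DAC and siLuc DMSO together, the median was −0.47 and the quartiles were −1.35 and 0.30. Among 394 elements with at least 5000 reads, the median was −0.22 and the quartiles were −0.53 and 0.08. The part that was lower by more than 2-fold went from 33.5% to 7.36% between these classes. Between the 2 decitabine libraries the median was 0.25 in the shallowest class and 0.19 in the deepest, where 474 elements had quartiles of −0.06 and 0.42. Between siStau1 DAC and siLuc DMSO the median moved from −0.22 to −0.044, and none of the 579 deepest elements was lower by more than 2-fold. The sign of the median on the scale of all repeat reads was the same in all 7 classes of each comparison.

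**Figure D3:**
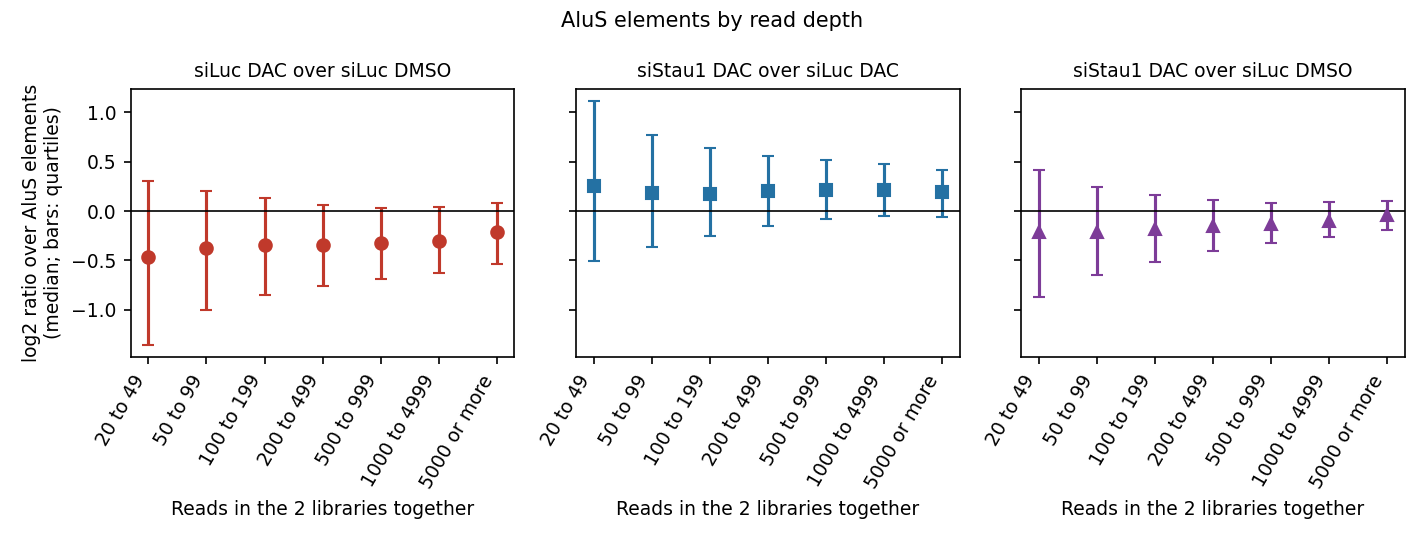
Log2 ratio over AluS elements (vertical axis, scaled to the reads on all repeat rows) by the reads of the 2 libraries compared, in 3 panels for the 3 comparisons; points are medians and bars run from the lower to the upper quartile. The bars narrow with depth, from −1.35 to 0.30 at 20 to 49 reads down to −0.53 to 0.08 at 5000 or more for siLuc DAC over siLuc DMSO.

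AluS reads were unevenly spread over the copies. No read fell on 250077 elements (34.7%) in any of the 3 libraries, and 292622 (40.6%) had a read in each. In siLuc DMSO 56.5% of elements had a read, in siLuc DAC 47.0% and in siStau1 DAC 55.1%. The 7206 elements that make up the top 1% of each library held 32.7%, 34.9% and 34.3% of its AluS reads, and the top 10% (72066 elements) held 79.3%, 81.7% and 80.7%. Of the 1000 most-read elements, siLuc DMSO and siLuc DAC shared 713, siLuc DAC and siStau1 DAC 788, and siLuc DMSO and siStau1 DAC 848. The rank correlation of reads over all 720665 AluS elements was 0.842, 0.845 and 0.882 for these pairs. This describes pairs of single libraries of the same repeats in the same cell line, and it includes the elements at 0 in both.

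The copy with the most reads over the 3 libraries was AluSz_2121_246, with 48204, 36217 and 64488 reads in siLuc DMSO, siLuc DAC and siStau1 DAC. Next came AluSz6_2008_67, with 39216, 29152 and 50314 reads. These 2 copies are consecutive rows of the deposited tables. Scaled to 1000000 repeat reads, AluSz_2121_246 stood at 674, 525 and 777 and AluSz6_2008_67 at 549, 423 and 606. On this scale both were lowest in siLuc DAC and highest in siStau1 DAC. With the authors' factors both are lowest in siLuc DMSO instead, and still highest in siStau1 DAC. The third, AluSc8_2004_11, had 30181, 20730 and 35257 reads, or 422, 301 and 425 when scaled to 1000000 repeat reads. It too has an AluS row before it, AluSx_2199_154, with 25655, 16658 and 29433 reads, and on its other side AluSq2_1876_7 with 2245, 1467 and 2548 reads. The row after AluSz_2121_246 is an older Alu monomer, FLAM_A, with 0, 2 and 0 reads, so a row next to a heavily read copy need not hold reads itself.

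Reads per copy were higher where the adjacent rows of the table were also Alu elements. The row order is not stated to follow the genome, so adjacent rows are not shown to be neighbours on a chromosome. AluS elements with no adjacent Alu row (428225 elements) had a mean of 23.7 reads in siLuc DMSO, those with 1 (207684) had 54.1 and those with 2 (84756) had 80.7. In siLuc DAC the means were 16.8, 42.8 and 65.1, and in siStau1 DAC 24.3, 59.4 and 89.7. The ratio of 2 adjacent Alu rows over none was 3.41, 3.87 and 3.69 in siLuc DMSO, siLuc DAC and siStau1 DAC. Without the 1% of AluS elements with most reads it was 2.51, 2.86 and 2.69.

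The pattern held in each of the 17 subfamilies but was not particular to AluS. By subfamily the siLuc DMSO ratio ran from 1.92 in AluSq10, where 233 elements had 2 adjacent Alu rows, to 4.82 in AluSc8, with 2539. In siLuc DAC it ran from 2.15 in AluSq10 to 5.82 in AluSc5. AluY had siLuc DMSO means of 13.2, 34.8 and 53.1 reads, a ratio of 4.01, and AluJ 19.8, 38.5 and 61.2, a ratio of 3.10. MIR elements, older SINEs that are not derived from 7SL, had a ratio of 2.87 at far fewer reads, from 3.58 to 10.3 per element, and L2 elements 3.52. For L1 elements the ratio was 0.900, 1.52 and 1.31 for siLuc DMSO, siLuc DAC and siStau1 DAC, respectively. The L1 ratio of means was thus below 1 in the DMSO library and above 1 in both decitabine libraries. By another measure, 2.05%, 2.02% and 2.58% of L1 elements with 0, 1 and 2 adjacent Alu rows had at least 20 reads in siLuc DMSO.

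**Figure D4:**
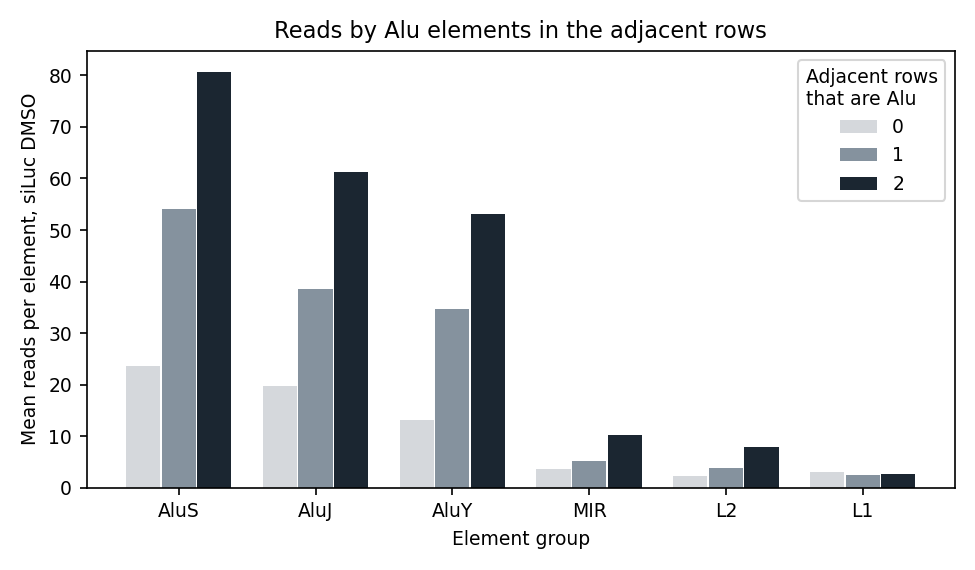
Mean reads per element in siLuc DMSO (vertical axis) for 6 repeat groups, by the number of adjacent table rows that are Alu elements (shade of the bars). AluS rises from 23.7 to 54.1 and 80.7 reads, and AluJ, AluY, MIR and L2 also rise. The L1 mean does not rise in this library, although its ratio was above 1 in siLuc DAC (1.52) and siStau1 DAC (1.31).

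Among the most-read copies adjacent Alu rows were common. Ranked by reads over the 3 libraries, 90 of the first 100 AluS elements had at least 1, as did 82.7% of ranks 101 to 1000, 72.6% of ranks 1001 to 10000 and 37.5% of those beyond rank 100000, against 40.6% of all AluS elements. In all, 353 of the top 1000 lay next to another of the top 1000. Of the rows beside the top 1000, the 806 that were Alu elements had a median of 814.5, 788 and 1043 reads in siLuc DMSO, siLuc DAC and siStau1 DAC. The 789 outside Alu had medians of 10, 39 and 25 reads. Rows beside heavily read AluS copies thus held far more reads when they were Alu than when they were not, in each of the 3 libraries. MIR, L2 and L1 elements with 1 or 2 adjacent Alu rows had a median of 0 reads in each library. Among AluS elements with 2 adjacent Alu rows the medians were 8, 4 and 8 reads in siLuc DMSO, siLuc DAC and siStau1 DAC. Both kinds of row beside the top 1000 thus had medians above these.

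In the decitabine library of control cells, a set of AluS copies had no read at all although both other libraries covered them. Of 157009 AluS elements with at least 20 reads in both siLuc DMSO and siStau1 DAC, 2871 (1.83%) had 0 reads in siLuc DAC, against 2.15% of all repeat elements held to the same rule. The mirrored counts were 8 of 136463 at 0 in siLuc DMSO, with a background of 0.202%, and 5 of 135428 at 0 in siStau1 DAC, with a background of 0.00420%. The AluS share at 0 in siLuc DAC thus lay near the background, and zeros of this kind were rare in both other libraries. All 17 subfamilies had such elements, from 3 of 289 (1.04%) in AluSq10 to 10 of 381 (2.62%) in AluSq4. AluSz had the most by number, 526 of 28719 (1.83%). With at least 100 reads in both others, the same rule found 259 of 55511 AluS elements (0.467%) at 0 in siLuc DAC, against 0.681% of all repeat elements. It found 0 of 44687 at 0 in siLuc DMSO, with a background of 0.00106%, and 0 of 43345 in siStau1 DAC, where the background was 0 of 84279 repeat elements.

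The copies with the lowest ratios of siLuc DAC over siLuc DMSO were all of this kind. AluSg_2344_38 had 652, 0 and 565 reads in siLuc DMSO, siLuc DAC and siStau1 DAC, AluSz_1869_119 had 647, 0 and 592, and AluSz6_2080_50 had 618, 0 and 526. Against a floor of 3 reads in the library at 0, their log2 ratios were −7.71, −7.70 and −7.63 or below. For siStau1 DAC over siLuc DAC the highest were AluSg7_2370_5, with 539, 0 and 613 reads, AluSq2_1573, with 496, 0 and 600, and AluSz_1869_119 again, with log2 ratios of at least 7.41, 7.38 and 7.36.

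Many AluS copies at 0 in siLuc DAC lay near each other in the table. Another AluS element at 0 in siLuc DAC stood within 20 rows of 1727 of the 2871 (60.2%). In windows of 2000 rows, 63 of 2287 windows (2.75%) held at least 10 such elements each and together held 39.7% of them. Windows differ in how many eligible AluS elements they hold. The same counts were not made for all eligible AluS elements or for other repeats. Whether the grouping exceeds theirs was not tested. The densest window had 58 of its 85 eligible AluS elements at 0. Its AluS elements summed to 10143, 2079 and 9699 reads in siLuc DMSO, siLuc DAC and siStau1 DAC, and its other rows to 10730, 965 and 14190. Both AluS and other rows were thus low there in siLuc DAC. Over most of its first 900 rows AluS reads were nearly absent from siLuc DAC, while the 100 rows from row 1250 on had reads in all 3 libraries. From row 1800 to the end of the window siLuc DAC again had 0 to 2 AluS reads per 50 rows, against 46 to 71 in siLuc DMSO and 17 to 72 in siStau1 DAC. A second window, with 57 of 170 eligible AluS elements at 0, was not low as a whole. Its AluS elements summed to 43834, 35047 and 48178 reads in siLuc DMSO, siLuc DAC and siStau1 DAC. Its other rows summed to 16676, 19854 and 22657, more in siLuc DAC than in siLuc DMSO. What sets these runs of rows apart in 1 library was not tested.

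**Figure D5:**
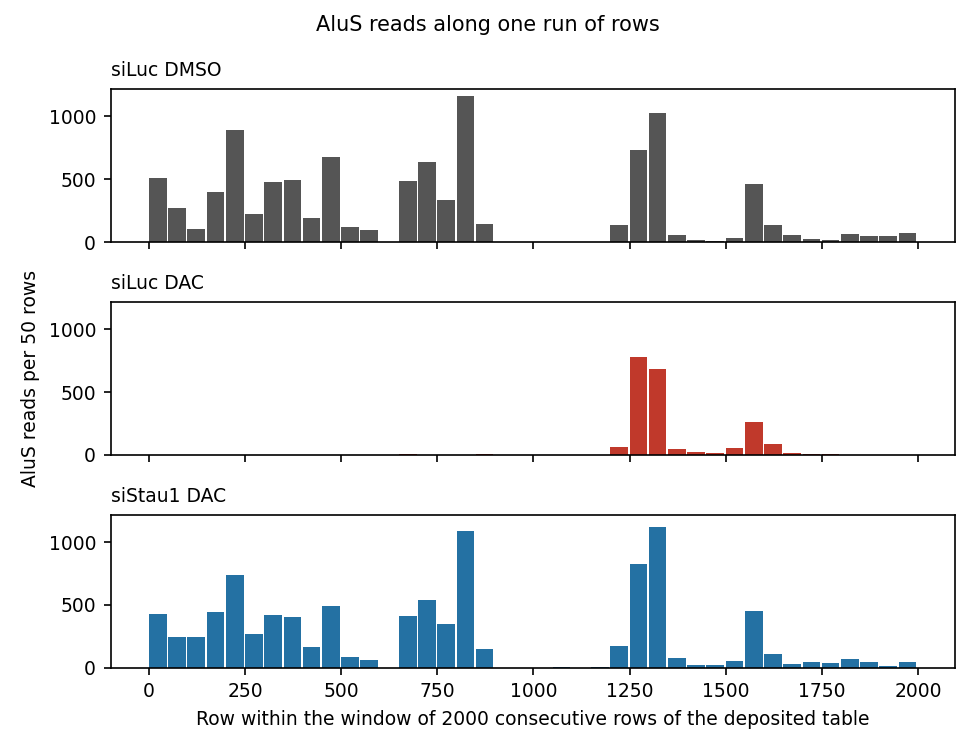
AluS reads per 50 rows (vertical axis, unscaled) along the 2000 consecutive table rows with the most AluS elements at 0 in siLuc DAC, in 1 panel per J2 library. Reads are nearly absent from the left part in siLuc DAC only, whereas the 50 rows from row 1250 on held 729, 779 and 827 reads in siLuc DMSO, siLuc DAC and siStau1 DAC; from row 1800 on siLuc DAC again has 0 to 2 reads per 50 rows.

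Elements with large ratios and a read in every library mostly had low read numbers. AluSx_2140_134 had 6, 102 and 12 reads in siLuc DMSO, siLuc DAC and siStau1 DAC, which made it the highest for siLuc DAC over siLuc DMSO (log2 ratio 4.03) and among the lowest for siStau1 DAC over siLuc DAC (−3.30). AluSc8_2290_46 had 8, 93 and 22 reads and AluSz_2234_137 had 10, 109 and 40, with log2 ratios of 3.51 and 3.43 for siLuc DAC over siLuc DMSO. These elements were chosen for this ratio and reached the 100 reads through siLuc DAC, so their order between the 2 libraries was fixed by the choice. AluSx_2220_160 had 30, 138 and 10 reads and AluSq2_1943_12 had 36, 151 and 13, the lowest for siStau1 DAC over siLuc DAC at −3.99 and −3.76. The highest for siStau1 DAC over siLuc DMSO were AluSx3_2273_63, with 4, 90 and 114 reads (4.45), AluSx_2075_42, with 9, 43 and 109 (3.31), and AluSx3_2369_19, with 102, 599 and 888 (2.90). The lowest were AluSx_2083_167, with 112, 75 and 23 reads (−2.48), AluSz_2082_171, with 100, 54 and 21 (−2.44), and AluSz_2302_150, with 120, 70 and 26 (−2.40). All elements named in this paragraph were chosen for the ratio given, so the sign of that ratio was fixed by the choice. The ratios are on the scale of all repeat reads. The authors' factors shift a log2 ratio by at most 0.89, too little to change the sign of any ratio this large.

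Proteins that bind or edit Alu RNA were followed in total RNA, through a list of 18 genes (19 identifiers, since MATR3 has 2 overlapping gene models that can share reads). The authors' deposited table gives 1 FPKM value per group of 2 libraries, so no spread can be given. With decitabine in siLuc cells, 0 of the 19 were called higher and 6 lower at a q-value under 0.05, against a background of 8.71% higher and 4.78% lower over all tested genes. In siStau1 cells 2 were higher and 4 lower, against 4.56% and 2.89%. For siStau1 over siLuc, 0 were higher and 1 lower with DMSO (0.333% and 0.466% of all tested genes) and 1 higher and 0 lower with decitabine (0.434% and 0.469%). The median log2 ratio of the list was −0.57, −0.45, 0.19 and 0.23 in these 4 comparisons, and that of all tested genes 0.23, 0.11, −0.02 and −0.14. The comparisons share groups in pairs.

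SRP9 and SRP14 form the dimer that binds the Alu fold of 7SL RNA and of Alu RNA itself. SRP9 (ENSG00000143742.12, chromosome 1, 225777813 to 225790466) stood at 128 FPKM with DMSO and 31.7 with decitabine in siLuc cells, and at 186 and 75.9 in siStau1 cells. The genes that follow are given in this order of the 4 groups. In the authors' deposited table it was lower with decitabine in both arms (q-values 0.00162 and 0.00162) and higher in siStau1 than siLuc with decitabine (q-value 0.00525). SRP14 (ENSG00000140319.10, chromosome 15, 40035739 to 40039188) stood at 182, 83.2, 351 and 114 FPKM and was lower with decitabine in both arms (q-values 0.0302 and 0.0399, the authors' deposited table). Its q-value for siStau1 over siLuc with decitabine was 0.566, per the authors' deposited table.

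SSB, the La protein that binds RNA polymerase III transcripts, had 68.3, 17.2, 121 and 37.5 FPKM and was lower with decitabine in both arms (q-values 0.00162 and 0.00162, the authors' deposited table). DHX9, a helicase that unwinds Alu duplexes, had 145, 70.4, 165 and 101 FPKM, with a q-value of 0.0134 in siLuc and 0.153 in siStau1 in the authors' deposited table. MATR3, a nuclear RNA-binding protein, had 224, 79.9, 306 and 127 FPKM for ENSG00000015479.18, called lower in both arms (q-values 0.0354 and 0.0149, the authors' deposited table), whereas its second gene model had 15.4, 17.8, 11.03 and 21.2 FPKM and was not called. STAU2, the paralog of Staufen1, had 27.9, 7.33, 40.2 and 16.7 FPKM and was called in siLuc only (q-values 0.0383 and 0.333, the authors' deposited table). Whether the arms differ was not tested.

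The list also holds the cytoplasmic sensors of duplex RNA. IFIH1, which encodes MDA5, had 27.2, 22.0, 12.9 and 29.1 FPKM. It was called higher with decitabine in siStau1 cells (q-value 0.0266, the authors' deposited table) and had a q-value of 0.720 in siLuc cells. For siStau1 over siLuc it was not called with DMSO or with decitabine (q-values 0.0540 and 0.595, the authors' deposited table). Whether the response to decitabine differs between the arms was not tested for any gene of the list. DDX58, which encodes RIG-I, had 41.5, 51.7, 20.2 and 53.5 FPKM, called higher with decitabine in siStau1 cells (q-value 0.00162, the authors' deposited table) and lower in siStau1 than in siLuc with DMSO (q-value 0.0279, the authors' deposited table). ADAR, the editing enzyme, had 121, 176, 93.6 and 120 FPKM and was not called in any of the 4 comparisons. BCYRN1, the gene of BC200 RNA, which descends from an Alu copy, had 1.81, 8.77, 13.5 and 1.81 FPKM, with no call in the authors' deposited table.

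GC content moved with these gene values. Across 10925 protein-coding genes at 1 FPKM or above with and without decitabine, the log2 ratio of siLuc DAC over siLuc DMSO had a rank correlation of 0.659 with the GC content of the transcript, across genes, which are not replicates. The list had a median GC content of 43.3% and these genes 48.1%. After centring within 20 bins of GC content, the list's median log2 ratio was −0.24 in place of −0.57, with SRP9 at −1.27 in place of −2.01 and STAU2 at −0.97 in place of −1.92. For siStau1 over siLuc with decitabine the rank correlation with GC was −0.716, and centring moved SRP9 from 1.25 to 0.77. The part of GC in the authors' calls was not tested.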

How the data were processed

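The authors' 3 J2 tables each set 2 libraries side by side over 5622516 repeat rows. Values of siLuc DMSO are deposited as counts with 1 added. Those of siLuc DAC and siStau1 DAC are deposited as a signal, the count with 1 added and multiplied by 1.92 or 1.27, and the origin of both multipliers is not given in the sources used here. Dividing by the column minimum and subtracting 1 gave whole reads for 100.0% of values (tolerance 1e-06). A deposited score, the ratio of libraries to log base 1.5 per the file headers, was not used. For total RNA the authors deposited FPKM, a score, p-values and q-values, with 1 FPKM per group, per the file headers. Per the submitters' processing notes the tools were bcl2fastq 2.20, HISAT2 2.1.0, featureCounts, DESeq 1.36.0, Cuffdiff 2.2.1 and Cuffnorm 2.2.1, with hg38, and no role or order is stated.

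Reads were scaled to the total on repeat rows. Ratios used 0.5 added reads and at least 20 reads in the 2 libraries. Beyond 2-fold counts as called. Intervals are Wilson 95% intervals of shares and order-statistic intervals of medians. Gene log2 ratios used FPKM plus 0.1, which understates the change of low genes. The floor of a library at 0 was 3 reads. Ratios were tested on simulated data. Python 3.11.15, pandas 2.3.3 and scipy 1.17.1 were used. Single elements were named by rule: the 3 with most reads, and the 3 highest and 3 lowest per comparison among those with at least 100 reads. Genes were named where called by the authors, besides STAU1. ADAR and BCYRN1 were named outside the rule. The members and lists were chosen with earlier results of these data known.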

Additional observations from a re-analysis of the deposited data

How the results depend on the processing

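Values below are in the order siLuc DAC over siLuc DMSO, siStau1 DAC over siLuc DAC and siStau1 DAC over siLuc DMSO, unless libraries are named. The authors' factors reversed the AluS medians (0.51, −0.12 and 0.39) and summed log2 ratios (0.56, −0.10 and 0.46), gave 17, 0 and 17 subfamilies higher, and put 27.2%, 11.8% and 16.0% of elements above 2-fold and 8.86%, 12.9% and 3.67% below, where all repeat elements had 46.2%, 10.5% and 30.5% above and 6.73%, 22.2% and 2.78% below. The origin of these factors is not given in the sources used here, so the direction of AluS between libraries rests on which scaling is right. Scaling to Alu rows gave medians of −0.080, −0.00073 (reversed) and −0.086, summed log2 ratios of −0.038, 0.016 and −0.022, and 3, 12 and 2 subfamilies higher. Scaling to reads outside Alu gave medians of −0.70, 0.41 and −0.29 and summed log2 ratios of −0.66, 0.43 and −0.23. The median ratio over elements with at least 100 reads in every J2 library gave −0.24, 0.10 and −0.15. A minimum of 50 reads gave medians of −0.35, 0.19 and −0.16, a minimum of 100 gave −0.34, 0.20 and −0.15, and no minimum gave −0.61, 0.37 and −0.22. Adding 1 read gave −0.37 and 0.20 in the first 2 comparisons. At 100 reads, 2.63%, 9.57% and 1.14% of elements lay above 2-fold and 15.7%, 2.39% and 2.53% below, and the AluS median differed from that of AluY by −0.099 in the first comparison and from that of AluJ by −0.11, 0.037 and −0.066. Elements at 0 in 1 library with at least 100 reads in the others numbered 0 for siLuc DMSO, 259 for siLuc DAC (0.467%, against 0.681% of all repeat elements) and 0 for siStau1 DAC.

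The AluS share in siLuc DMSO, siLuc DAC and siStau1 DAC was 50.1%, 41.0% and 44.9% without small structured RNA classes, 68.8%, 67.0% and 67.7% of Alu reads, and 30.6%, 23.1% and 27.5% without the top 1% of AluS elements. Without that top 1%, the summed log2 ratios were −0.41, 0.25 and −0.16, and, chosen after seeing the data, the ratio of reads with 2 adjacent Alu rows over none was 2.51, 2.86 and 2.69 in the 3 libraries. At a q-value under 0.01 the called genes of the Alu-binding list went from 6 to 2 with decitabine in siLuc, from 6 to 3 with decitabine in siStau1 and from 1 to 0 for siStau1 over siLuc with DMSO. No paired analysis was possible because the total RNA table gives 1 value per group and J2 has 1 library per group. Leaving out single replicates was not run for the same reason. Depth limits single elements: for siLuc DAC over siLuc DMSO, 33.5% of AluS elements with 20 to 49 reads were lower beyond 2-fold, against 7.36% of those with at least 5000.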

Other observations

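Element names carry a number after the subfamily whose meaning is not given in the sources used here. Its median was 1667 over AluJ, 2194 over AluS and 2451 over AluY. The 25017 AluS elements with a number under 1000 had means of 3.76, 4.39 and 5.12 reads in siLuc DMSO, siLuc DAC and siStau1 DAC, and 1927 of them passed the minimum of 20 reads for siLuc DAC over siLuc DMSO. Their median log2 ratio was 0.31, while that of the 272387 elements numbered 2000 to 2249 was −0.41, with means of 45.5, 34.3 and 48.5 reads. For siStau1 DAC over siLuc DAC the medians of these 2 classes were −0.07 and 0.22. The difference between classes does not depend on the scaling, and it was not tested.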
